A study of Sus scrofa with 7 samples.

Results

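The genes described here encode the lysosome and the vacuolar proton pump that acidifies it. They were chosen by name: every symbol that begins with ATP6V0 or ATP6V1, and 26 further lysosome genes. That gave 48 genes of 20653 in the deposited table. Each gene was represented by its transcript row of highest mean, and 45 of the 48 reached 10 normalized counts in at least 3 libraries. ATP6V1FNB, 1 of the 45, is named only for lying beside ATP6V1F and encodes no pump subunit, which left 18 subunits and 26 other lysosome genes.

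The samples are heart muscle of male farm pigs from the anteromidventricular region, taken 14 weeks after an infarct of the left circumflex artery (LCX). All the pigs received a vector of adeno-associated virus serotype 5 (AAV5). In 4 pigs (labelled S100a1) it carried human S100A1, whose protein binds calcium and acts on contraction, and in 3 control pigs (labelled hrLuc) it carried luciferase, a reporter. The sources used here do not give the promoter of the vectors, their dose or the age of the pigs. No group without infarction or without vector was analysed here, so both groups share the injury and the vector. Each title names a pig, and the libraries were taken as separate animals. Libraries were made from total RNA with a TruSeq RiboZero kit, which removes ribosomal RNA.

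Lysosomes digest proteins, lipids, glycogen and worn-out organelles, in heart muscle cells as in macrophages, the scavenger cells that enter an infarct. Their enzymes work in acid, which the proton pump supplies: its V1 sector outside the membrane splits ATP and turns a rotor, and the V0 sector in the membrane carries the protons. The transcription factors TFEB and TFE3 switch on many lysosome genes together.

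Counts per library came to 28679324 to 38409552 reads over 1 row per gene. Of 12 genes that mark heart muscle cells, 11 were in the table and all of those were detected, with summed normalized counts of 4614447 to 6082406 per library. Pig S100A1 had 4429 to 9125 normalized counts and was lower in S100a1, with a log2 fold change of -0.39 ± 0.16 (unadjusted p = 0.041, adjusted p = 0.577 in limma). Its span overlaps S100A13. It does not check the labels, since the sources used here do not say how reads of the human sequence were handled. These are bulk samples, so fewer cells of a type and less RNA per cell cannot be told apart.

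None of the 45 genes changed at an adjusted p under 0.05 in limma, a test across all genes. The smallest adjusted p among them was 0.415. Of all 15661 genes tested, 0.0128% passed. At an unadjusted p under 0.05 there were 7 members, 6 of them lower and 1 higher in S100a1, where 8.26% of all genes tested were under that value, 4.57% lower and 3.69% higher. edgeR called 0 members and DESeq2 called 2, GRN and ATP6V1E1, on reads recovered from the table. DESeq2 called 0.568% of all genes. Those 2 are also the members under 0.05 in the authors' deposited table, and may have been picked for that. They are among the 7 members above as well. A higher share of members than of all genes therefore supports nothing here. Without S100a1 replicate 1 the 7 members became 3, or 6.67% of 45 where all genes gave 6.30%. With each library centred on its median they became 4, or 8.89% where all genes gave 8.92%, so in both settings the members were near the share of all genes.

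Of the 26 lysosome genes outside the pump, 24 had a lower mean in S100a1 on the log2 scale, with a median log2 fold change of -0.16. Of the 18 pump subunits, 9 were lower and 9 higher, with a median of -0.013. Over all genes tested 56.5% were lower, with a median of -0.024. The 24 of 26 stayed 24 with quantile normalization and with median centring, and were 23 or 24 with any 1 library left out. These counts describe genes chosen with earlier results of these data known and are not a test.

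**Figure D1:**
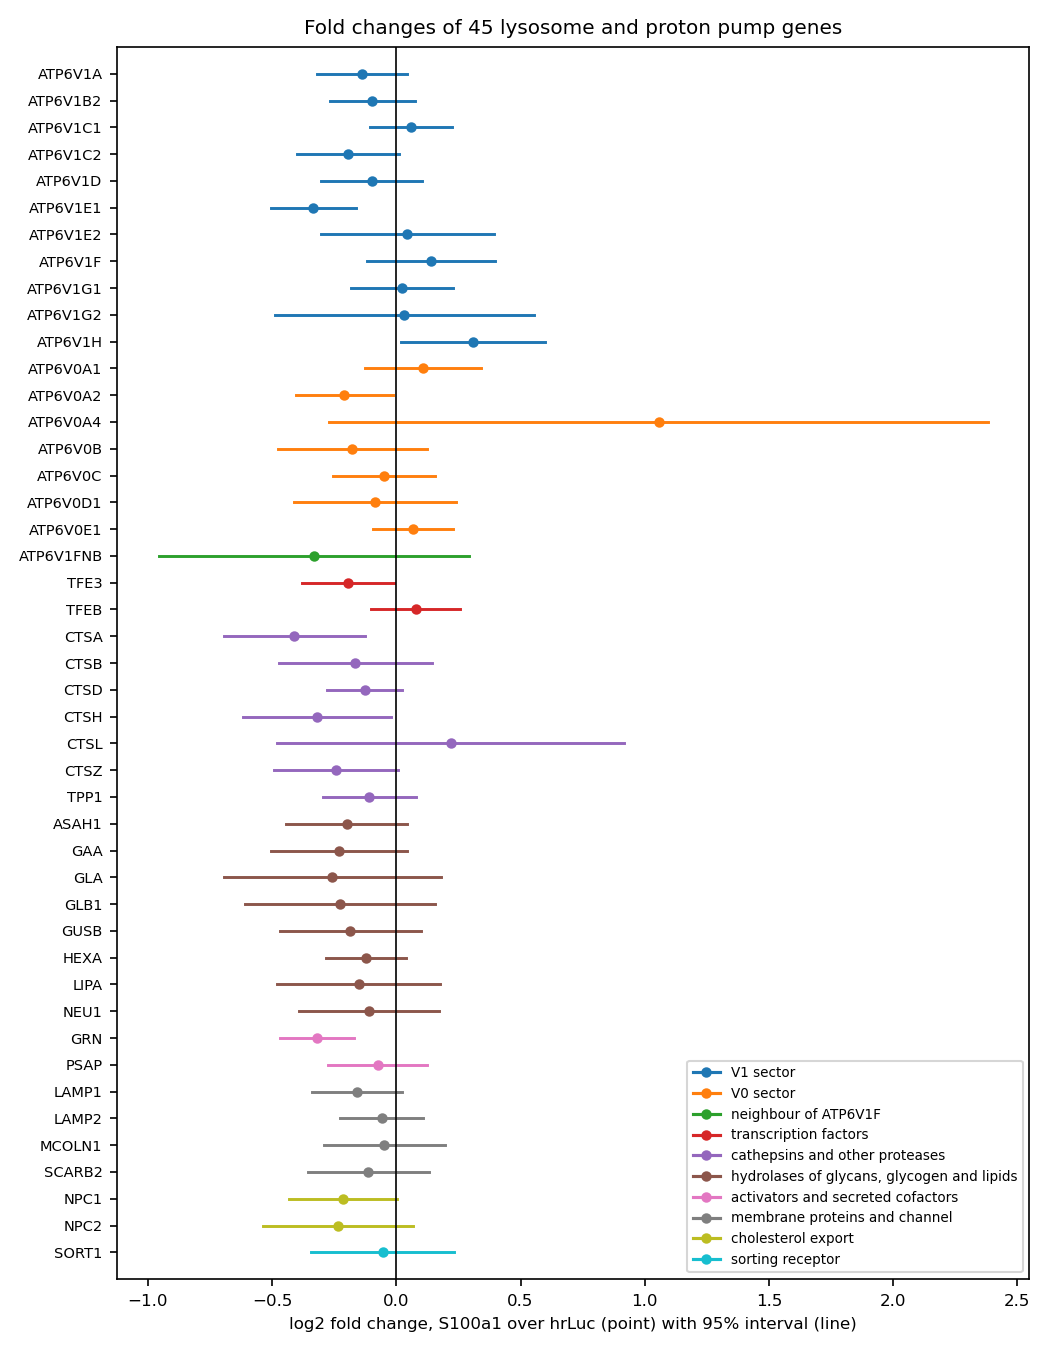
Log2 fold change of S100a1 over hrLuc (x axis) for the 45 genes (y axis), coloured by role, with the 95% interval from limma as a line. Most lysosome genes outside the pump lie to the left of 0, the pump subunits lie on both sides, and ATP6V0A4 has the widest interval, from -0.27 to 2.38.

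Within the V1 sector, ATP6V1E1 had the lowest log2 fold change and ATP6V1H the highest. ATP6V1E1 (Sscrofa11.1, chromosome 5, 69752644 to 69772038) encodes subunit E, part of the outer stalk that holds the catalytic head still. Its normalized count was 1732, 1684 and 1865 in hrLuc replicates 1 to 3 and 1355, 1522, 1405 and 1307 in S100a1 replicates 1 to 4. Every S100a1 library was below every hrLuc library. The means were 1761 ± 94.0 (SD, n = 3) and 1397 ± 92.3 (SD, n = 4), a log2 fold change of -0.33 ± 0.08 (standard error, as for all fold changes here), a change of -20.7%, with an adjusted p of 0.453 in limma. In the authors' deposited table its adjusted p is 0.0228. ATP6V1E1 and GRN are the 2 members under 0.05 in the authors' deposited table, where 0.661% of the genes were under 0.05 and 0.328% were under it and lower. They may have been picked for that, so their differences are described and support nothing.

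ATP6V1H (chromosome 4, 77211493 to 77269757) encodes subunit H, which couples ATP splitting to the turning of the rotor. Its count was 1169, 902 and 1087 in hrLuc and 1485, 1349, 1324 and 1067 in S100a1. In the S100a1 group 3 libraries were above all hrLuc libraries and replicate 4 was within their range. The log2 fold change was 0.31 ± 0.13 (adjusted p = 0.575, limma), and it was 0.20 without hrLuc replicate 2. ATP6V1H was the 1 member with an unadjusted p under 0.05 on the higher side, and 3.69% of all genes were of that kind.

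The catalytic head gave smaller differences. ATP6V1A, the ATP-splitting subunit, had a log2 fold change of -0.14 ± 0.08. ATP6V1B2, its partner in the head, was at -0.10 ± 0.08. Their values overlapped between the groups, with ATP6V1A at 666 to 755 in hrLuc and 625 to 691 in S100a1. ATP6V1B2 was at 1685, 1579 and 1892 in hrLuc and 1552, 1651, 1598 and 1613 in S100a1, so all but S100a1 replicate 1 lay within the hrLuc range. Subunit C, which grips the stalks when the sectors join, has 2 genes that lay on opposite sides of 0. ATP6V1C1 was at 0.06 ± 0.07. ATP6V1C2 was at 401, 393 and 457 in hrLuc and 363, 358, 376 and 359 in S100a1. No ATP6V1C2 value overlapped between the groups, yet its log2 fold change was only -0.19 ± 0.09 (adjusted p = 0.609, limma), and -0.13 without hrLuc replicate 3.

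The rotor subunits ATP6V1D and ATP6V1F were at -0.10 ± 0.09 and 0.14 ± 0.11. The stalk subunits ATP6V1G1 (0.02 ± 0.09), ATP6V1G2 (0.03 ± 0.23) and ATP6V1E2 (0.04 ± 0.15), an alternative form of subunit E, were close to 0. Each of those 3 took the other sign with some single library left out. ATP6V1G2 had only 34.1 to 52.4 normalized counts and its span overlaps NFKBIL1, and ATP6V1E2 overlaps RHOQ and TMEM247.

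In the V0 sector, ATP6V0A2 had the smallest p of the subunits. It encodes a form of subunit a, through which protons enter and leave the rotor ring, at chromosome 14, 29250400 to 29297697, overlapping SUMO4. The libraries held 619, 614 and 576 in hrLuc and 483, 555, 554 and 498 in S100a1. The groups did not overlap. The log2 fold change was -0.21 ± 0.09 (adjusted p = 0.575, limma). ATP6V0A1, another form of subunit a and the pump gene with the most reads, was at 2032, 1886 and 2090 in hrLuc and 2490, 2183, 2184 and 1822 in S100a1. Its log2 fold change was 0.11 ± 0.10, or 0.039 without S100a1 replicate 1, with S100a1 libraries on both sides of the hrLuc values.

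The ring subunits ATP6V0C and ATP6V0B were at -0.05 ± 0.09 and -0.18 ± 0.13. ATP6V0D1, which joins the ring to the V1 rotor, was at -0.09 ± 0.14, and its hrLuc values alone ran from 963 to 1494. ATP6V0E1, a small membrane subunit, was at 0.07 ± 0.07. TCIRG1 encodes the a3 form of subunit a under another name, so the rule missed it. It was added after its values were seen, and its log2 fold change was 0.02 ± 0.13.

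ATP6V0A4, the form of subunit a best known from the kidney, lay just inside the minimum of 10. Its counts were 6.59, 8.55 and 3.41 in hrLuc and 14.2, 26.7, 4.94 and 13.1 in S100a1. Its span overlaps TMEM213. It passed the minimum only through 3 S100a1 libraries, so its higher mean was favoured by the filter and is not a finding. Without it the median of the pump subunits was -0.050. CTSL was also just inside, at 10.2 to 11.8 in hrLuc and 11.5 to 15.6 in S100a1. Well below the minimum were ATP6V1B1 (0 to 3.21 over the 7 libraries), ATP6V1G3 (0 to 3.21) and ATP6V0D2 (0 to 1.09). ATP6V1B1 and ATP6V1G3 are known from kidney and ATP6V0D2 from bone-resorbing cells.

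The transcription factors TFEB and TFE3 lay on opposite sides of 0. TFE3 (chromosome X, 43100375 to 43116377) was at 779, 701 and 704 in hrLuc and 591, 643, 671 and 639 in S100a1. The groups did not overlap. The difference was -0.20 ± 0.08 on the log2 scale (adjusted p = 0.575, limma). TFEB (chromosome 7, 36870240 to 36920887) was at 1786, 2133 and 1796 in hrLuc and 2053, 2043, 2017 and 1904 in S100a1. The S100a1 values sat inside the hrLuc range, with a log2 fold change of 0.08 ± 0.08. MITF, a relative of both factors, was in a separate list of genes that sense nutrients at the lysosome. Its count was 8536, 9138 and 9420 in hrLuc and 12044, 11812, 10259 and 9855 in S100a1. Every S100a1 library was above every hrLuc library, and the log2 fold change was 0.28 ± 0.09 (adjusted p = 0.535, limma).

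**Figure D2:**
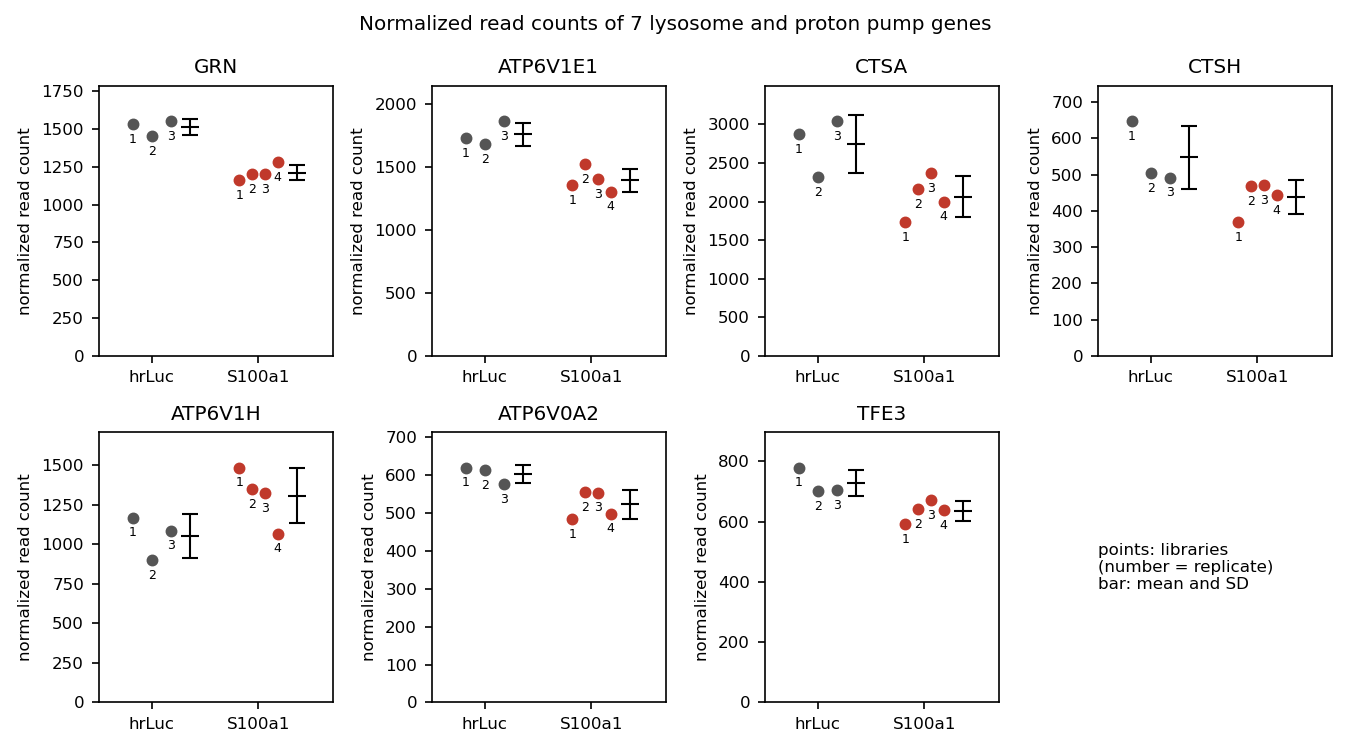
Normalized read counts (y axis, from 0) of the 7 genes with an unadjusted p under 0.05, by group (x axis). Points are libraries with their replicate number, and bars give the mean and SD of 3 hrLuc and 4 S100a1 libraries. The groups do not overlap in GRN, ATP6V1E1, CTSH, ATP6V0A2 and TFE3, and they overlap in CTSA and ATP6V1H.

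Among the cathepsins and other proteases, 6 of 7 were lower and 2, CTSA and CTSH, had an unadjusted p under 0.05. CTSA encodes cathepsin A, which cuts peptides and shields the enzymes encoded by GLB1 and NEU1 in a shared complex. The gene (chromosome 17, 48082480 to 48089971) overlaps NEURL2 and PLTP. Its count was 2870, 2320 and 3042 in hrLuc and 1731, 2162, 2366 and 2001 in S100a1. Only S100a1 replicate 3 reached above hrLuc replicate 2. The log2 fold change was -0.41 ± 0.13 (adjusted p = 0.535, limma), a change of -24.7%, and stayed between -0.53 and -0.33 with any library left out. Of the 45 genes this was the lowest log2 fold change.

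CTSH encodes cathepsin H, an aminopeptidase, on chromosome 7 from 48084882 to 48106072. It was at 647, 505 and 492 in hrLuc and 369, 468, 472 and 443 in S100a1. The groups did not overlap, but hrLuc replicate 1 stood well above the rest. The log2 fold change was -0.32 ± 0.13 (adjusted p = 0.575, limma), and -0.19 without that library. CTSB, a cysteine protease and the protease gene with the most reads, was at 6157, 5490 and 7432 in hrLuc and 4905, 6959, 5411 and 5434 in S100a1. Its values overlapped widely, with a log2 fold change of -0.16 ± 0.14, or -0.047 without hrLuc replicate 3 and -0.27 without S100a1 replicate 2. CTSZ, a carboxypeptidase, was at -0.24 ± 0.11, CTSD, an aspartic protease, at -0.13 ± 0.07, and TPP1, a tripeptidase, at -0.11 ± 0.08. CTSL, with few reads, was the exception at 0.22 ± 0.31.

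All 8 hydrolases of glycans, glycogen and lipids had a lower mean in S100a1, from -0.26 to -0.11 on the log2 scale, and none had an unadjusted p under 0.05 in limma. GAA digests glycogen. It was at 1787, 1923 and 2322 in hrLuc and 1567, 1845, 1940 and 1493 in S100a1. Its log2 fold change was -0.23 ± 0.12 (adjusted p = 0.634, limma), and -0.12 without hrLuc replicate 3. GLB1, the beta-galactosidase, was at 3659, 4456 and 4941 in hrLuc and 3442, 4894, 3763 and 2917 in S100a1, a log2 fold change of -0.23 ± 0.17, or -0.12 without S100a1 replicate 4 and -0.36 without S100a1 replicate 2. The spread of GLB1 within each group was larger than the difference between the groups. GLA, the alpha-galactosidase, was at -0.26 ± 0.19 with 67.2 to 104 normalized counts.

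ASAH1, which splits ceramide, was at -0.20 ± 0.11. GUSB, a glucuronidase, was at -0.18 ± 0.12, and LIPA, the acid lipase, at -0.15 ± 0.14, or 0.0062 without hrLuc replicate 1. HEXA, a subunit of hexosaminidase, was at -0.12 ± 0.07, and NEU1, a sialidase, at -0.11 ± 0.12. NEU1 and GLB1 had the direction of CTSA, whose protein shares their complex, but their values overlapped between the groups. That direction was common to 24 of the 26 lysosome genes outside the pump, so it says nothing about the complex.

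GRN encodes progranulin, a secreted protein that is delivered to the lysosome and cut into granulins. The gene is at chromosome 12, 18893772 to 18900444. Its count was 1534, 1453 and 1551 in hrLuc and 1162, 1202, 1202 and 1281 in S100a1. Both groups were tight and did not overlap. The means were 1513 ± 52.2 (SD, n = 3) and 1212 ± 50.1 (SD, n = 4), a log2 fold change of -0.32 ± 0.07, a change of -19.9%, with an adjusted p of 0.415 in limma. In the authors' deposited table its adjusted p is 0.00744. PSAP encodes prosaposin, the precursor of the activators that present lipids to the hydrolases. PSAP was at 11091, 10778 and 12733 in hrLuc and 10026, 10661, 11994 and 11080 in S100a1, a log2 fold change of -0.08 ± 0.09. The PSAP values overlapped between the groups.

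The 4 genes of membrane proteins were all lower by small amounts. LAMP1, an abundant coat protein of the lysosome membrane, was at 2837, 2809 and 2911 in hrLuc and 2360, 2912, 2496 and 2493 in S100a1. Its hrLuc values were tight, and S100a1 replicate 2 lay just above them. The log2 fold change was -0.16 ± 0.08 (adjusted p = 0.624, limma). SCARB2, the receptor that carries glucocerebrosidase to the lysosome, was at 6650, 5989 and 5903 in hrLuc and 5030, 6167, 6625 and 5156 in S100a1. Its log2 fold change was -0.11 ± 0.11, or -0.053 without S100a1 replicate 1. LAMP2, needed for fusion with autophagosomes in the heart, was at -0.06 ± 0.07, and its interval ran from -0.23 to 0.11. MCOLN1, a calcium channel of the lysosome, was at -0.05 ± 0.11.

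NPC1 and NPC2 pass cholesterol out of the lysosome together. NPC1 was at 615, 693 and 703 in hrLuc and 541, 634, 606 and 534 in S100a1. S100a1 replicate 2 lay above hrLuc replicate 1 and the other 3 lay below all hrLuc values. The log2 fold change was -0.21 ± 0.10 (adjusted p = 0.608, limma). NPC2 was at -0.23 ± 0.13, and -0.14 without hrLuc replicate 1. SORT1, a receptor that sorts proteins to the lysosome, was at 2156, 3226 and 2715 in hrLuc and 2566, 2711, 2675 and 2317 in S100a1. The hrLuc libraries differed from each other more than the groups did, and the log2 fold change was -0.06 ± 0.13.

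The ranges of the groups were disjoint in 6 of the 45 genes, with every S100a1 value below every hrLuc value: GRN, ATP6V1E1, CTSH, ATP6V0A2, TFE3 and ATP6V1C2. Of all genes tested 9.27% were separated, 5.31% lower and 3.96% higher. GRN and ATP6V1E1 may have been picked for a low p, so the 6 of 45 are a description and show no excess. Most differences were bounded closely. In 37 of the 45 genes the 95% interval lay within a 1.5-fold change either way, as in 10705 of the 15661 genes tested. The exceptions were CTSA, CTSH, GLA, GLB1, ATP6V1H, CTSL, ATP6V1FNB and ATP6V0A4. In 44 it lay within a 2-fold change, ATP6V0A4 being the exception. Of all genes tested 13504 were within a 2-fold change. ATP6V1FNB itself had only 22.5 to 29.2 normalized counts in hrLuc and 14.8 to 23.3 in S100a1. The spans of 14 of the 45 genes overlap another gene, among them CTSZ with NELFCD, GLB1 with TMPPE and PSAP with CDH23, so reads of these may be shared.

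Single libraries stood apart in the lysosome genes outside the pump. S100a1 replicate 1 had the lowest value of the 7 libraries in 17 of those 26 genes, and hrLuc replicate 3 had the highest in 13. The median deviation from each gene's own mean was -0.20 on the log2 scale in S100a1 replicate 1 and 0.17 in hrLuc replicate 3. In hrLuc replicates 1 and 2 it was 0.09 and 0.01. In S100a1 replicates 2 to 4 it was 0.03, -0.004 and -0.07, so the groups overlapped. Over all genes tested S100a1 replicate 1 held the lowest value in 24.1%. Without it the median log2 fold change of the 26 genes was -0.11. The pump subunits showed less of this, with medians of -0.09 to 0.06 over the libraries, and the lowest value in S100a1 replicate 1 for 6 of 18.

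**Figure D3:**
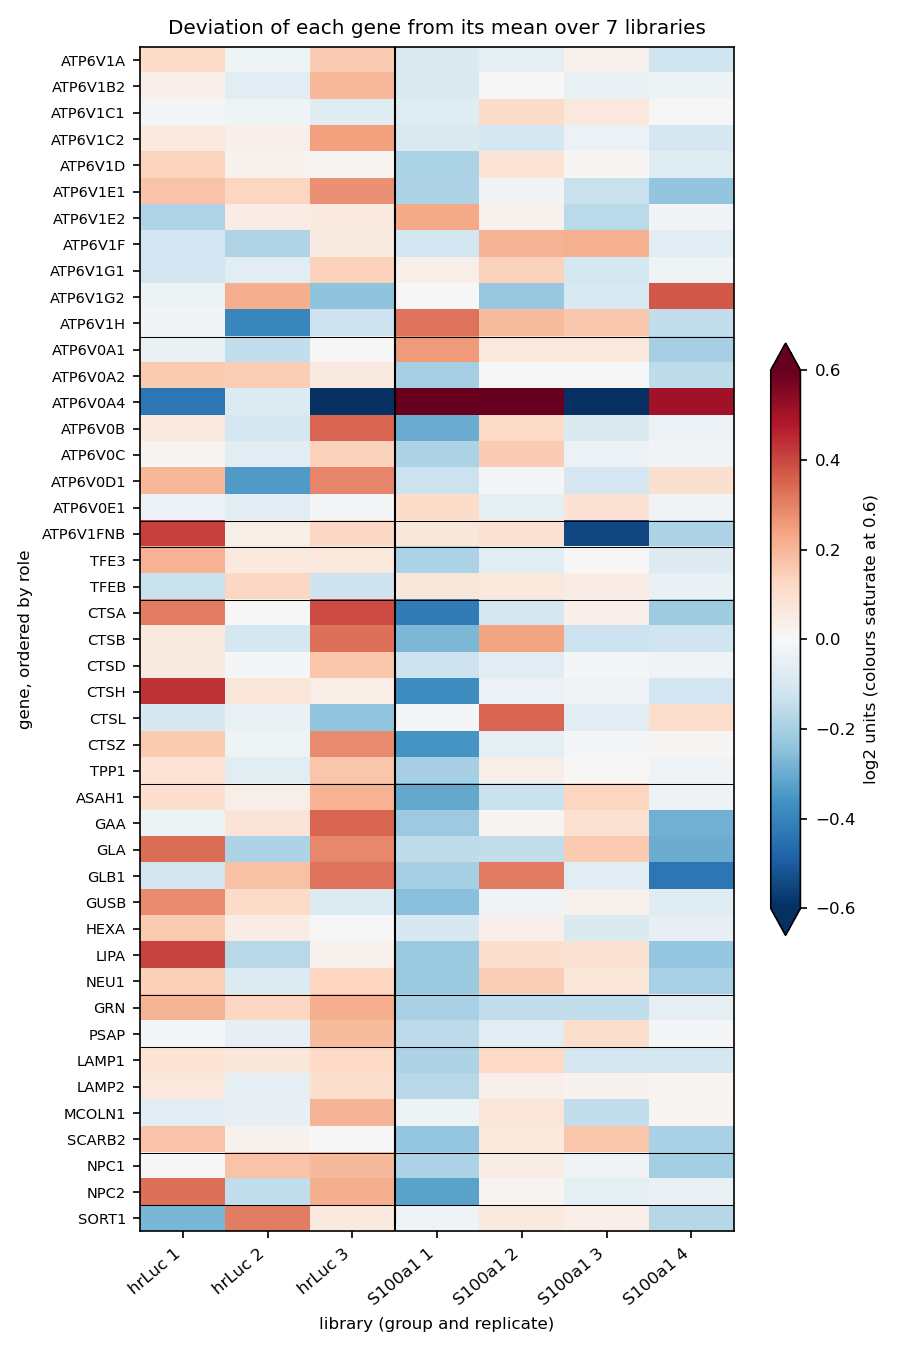
Deviation of each of the 45 genes (rows, ordered by role) from its own mean over the 7 libraries (columns), in log2 units, red for higher and blue for lower. The column of S100a1 replicate 1 is blue for most lysosome genes outside the pump, and that of hrLuc replicate 3 is mostly red.

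Markers of other cell types varied between the same libraries. Over all genes tested 56.5% were lower, and 8.26% had an unadjusted p under 0.05 in limma, 4.57% lower and 3.69% higher. Of 16 macrophage markers 15 were tested, 8 lower and 7 higher, with a median of -0.006. Their summed normalized counts were 8034 to 12289 in hrLuc and 7443 to 11276 in S100a1. S100a1 replicate 1 had the lowest sum and hrLuc replicate 1 the highest, whereas hrLuc replicate 3, where most lysosome genes were high, was at 8402. The 10 fibroblast markers summed to 134482 to 154976 in hrLuc and 88030 to 140003 in S100a1, lowest in S100a1 replicate 1. Of these 10 markers 9 were lower, with a median of -0.17, close to that of the lysosome genes outside the pump, and 2 had an unadjusted p under 0.05. The heart muscle markers had their highest sum in S100a1 replicate 1, at 6082406, against 4614447 to 5349182 in the others. Yet that library held the highest value in 5 of the 11 markers tested and the lowest in 3. Between the groups 4 of these 11 were lower and 7 higher, with a median of 0.06 and 1 at an unadjusted p under 0.05 in limma. T and natural killer cell markers summed to 519 to 958 in hrLuc and 436 to 577 in S100a1, with 8 of 10 lower, a median of -0.80 and 3 at an unadjusted p under 0.05. Like the lysosome genes they were high in hrLuc replicates 1 and 3, with median deviations of 0.89 and 0.78, and lowest in S100a1 replicate 1, at -0.70. In hrLuc replicate 2 and S100a1 replicates 2 to 4 the median was -0.23, -0.45, -0.014 and -0.005. The endothelial markers summed to 28176 to 32356 and 27319 to 30229, with 7 of 8 lower and a median of -0.06. The smooth muscle markers summed to 18271 to 23979 and 17217 to 20638, with 5 of 6 lower and a median of -0.36. The adipocyte markers summed to 8603 to 11755 and 9960 to 13545, with 4 of 5 higher and a median of 0.15. No marker in the table was at 0 in every library. The part of these cells in the lysosome values was not tested.

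**Figure D4:**
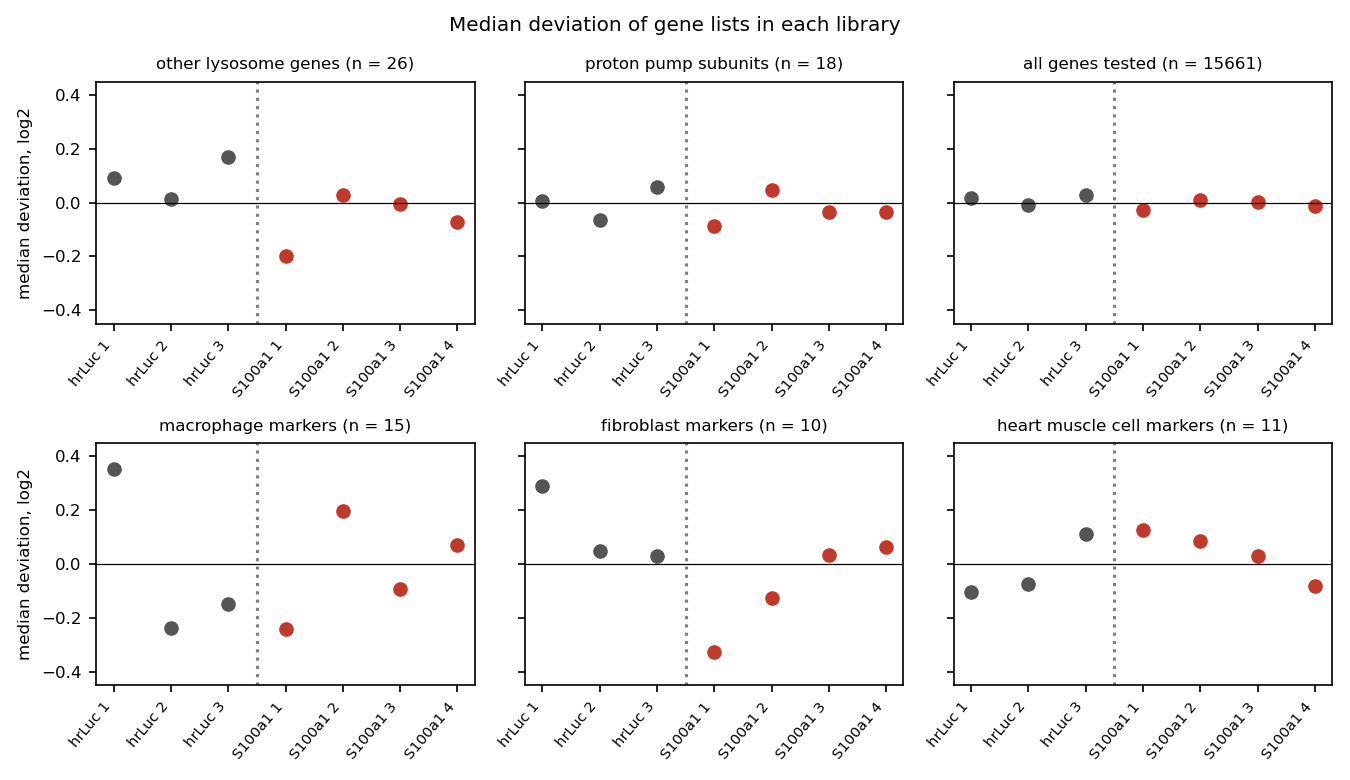
Median deviation in log2 units (y axis) of 6 gene lists in each library (x axis), hrLuc in grey and S100a1 in red. S100a1 replicate 1 is the lowest library for the lysosome genes outside the pump (-0.20), the macrophage markers (-0.241) and the fibroblast markers (-0.33). It is also the lowest for the pump subunits (-0.087) and all genes tested (-0.028), but the highest for the heart muscle cell markers (0.13). For the macrophage markers hrLuc replicate 2 is almost as low (-0.237). For the heart muscle cell markers hrLuc replicate 3 is almost as high (0.11).

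Other genes of the pathway were taken from lists by function, and none of them passed an adjusted p of 0.05 in limma. For each list below, the shares over all genes tested are the background. There 8.26% had an unadjusted p under 0.05 in limma, 4.57% lower and 3.69% higher, and 56.5% were lower. Of 12 assembly and accessory factors of the pump, 10 were lower, with a median of -0.06. CCDC115, which helps build the V0 sector, was the 1 with an unadjusted p under 0.05 (-0.24 ± 0.10, overlapping IMP4), ahead of ROGDI (-0.25 ± 0.14) and OXR1 (-0.12 ± 0.09, or -0.033 without hrLuc replicate 3). Of 46 other lysosomal enzymes tested, 31 were lower, with a median of -0.05, and 4 of these had an unadjusted p under 0.05. SMPD1, the acid sphingomyelinase, was at 1613, 1755 and 2079 in hrLuc and 1368, 1322, 1530 and 1457 in S100a1. Its groups did not overlap (log2 fold change -0.35 ± 0.10, adjusted p = 0.514, limma). RNASET2, which digests RNA, was at -0.34 ± 0.10 and SGSH, which digests heparan sulphate, at -0.60 ± 0.21, overlapping CARD14. Neither overlapped between the groups, and SGSH had only 50.2 to 115 normalized counts. Of the 46 enzymes 6 were separated lower and 1 higher, where 5.31% and 3.96% of all genes tested were.

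Of 31 other membrane proteins and transporters, 21 were lower, with a median of -0.10 and 1 gene at an unadjusted p under 0.05. That was CD164, a sialomucin, at -0.22 ± 0.09. SLC17A5, which exports sialic acid, was at -0.27 ± 0.12, and TPCN2, a cation channel, at 0.48 ± 0.22, or 0.23 when hrLuc replicate 3 was left out and 0.75 when replicate 2 was. The machinery of sorting and the mannose 6-phosphate tag was lower in 14 of 19 genes, with a median of -0.05 and 0 genes at an unadjusted p under 0.05 in limma. Its smallest p were those of M6PR (-0.15), AP3D1 (-0.12) and CLN8 (0.12). Tethering and movement of lysosomes was lower in 10 of 16, with a median of -0.04. RILP, an adaptor for the dynein motor, was at 0.13, or 0.014 without hrLuc replicate 1, and VPS16, a tethering subunit, at -0.10.

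Nutrient sensing was lower in 13 of 23, with a median of -0.002, and MITF was its 1 gene at an unadjusted p under 0.05. PPP3R1, a calcineurin subunit, was at -0.15 and MTOR at -0.11. Autophagy, which feeds material to the lysosome, was lower in 24 of 44, with a median of -0.009. Its smallest p were those of ATG2A (-0.15), FUNDC1 (-0.26) and ATG4C (0.14), and 0 of its genes had an unadjusted p under 0.05 in limma.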

How the data were processed

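RNA sequencing of 7 pig hearts was used. Each library column deposited by the authors holds a signal: reads of a transcript over that library's size factor, as the values show (100% are whole multiples of 1 read, within 0.01 read). The log2, ratio and adjusted p-value columns are the authors' own, per the file headers, and only the p-values are printed. The submitters' processing notes name DESeq2 1.33.1, FastQC 0.11.8, R 4.1.2 and the build Sscrofa11.1. Aligner, counter and strand setting: not given in the sources used here. Thus overlapping genes can share reads. All 63562 rows matched the RefSeq table (Sscrofa11.1), which gave positions. No transcript lengths were used, so levels are not compared between genes; "most reads" refers to reads.

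Genes at 10 or more in at least 3 libraries were fitted with limma 3.58.1 (R 4.3.3, trended variance, log2(value + 0.5), no covariates, two-sided, Benjamini-Hochberg over 15661 genes, 5 residual and 3.84 prior degrees of freedom). A fold change on this scale understates changes of low genes. Alternatives were quantile normalization, median centring, other filters and pseudocounts, a robust prior, the lowest transcript row, a replicate block, each library left out, and edgeR 4.0.16 and DESeq2 1.42.0 on recovered reads. The fits were tested on simulated counts.

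The members and lists were chosen with earlier results of these data known. Values of every library are given for members at an unadjusted p under 0.05 and, in each role group, those of smallest p and highest mean, and for genes near the minimum. ATP6V1C2, MITF and SMPD1 were added in full after their values were seen. The other lists give counts and up to 3 genes of smallest p, and 1 such gene is not reported here.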

Additional observations from a re-analysis of the deposited data

Results flagged for a closer look

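LAMP2 had 3149, 2895 and 3220 normalized counts in the hrLuc libraries. In S100a1 replicate 1 it had 2687, far from the other 3 S100a1 libraries at 3041, 3061 and 3075. The gap was 0.913 of the range of the group. It was the 1 gene of 45 screened in the 4 S100a1 libraries with such a gap, and chance gives about 1 in 20 groups. The 3 hrLuc libraries were too few to screen.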

How the results depend on the processing

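The count of members past an adjusted p of 0.05 was 0 in every limma fit and in edgeR, and 2 in DESeq2 (GRN and ATP6V1E1). Both may have been picked for their adjusted p in the authors' deposited table, so their being called supports nothing. The cause of the difference between the methods was not tested. At an unadjusted p under 0.05 the 7 members became 4 with median centring and 3 to 9 with a library left out, 3 being without S100a1 replicate 1. Over all genes the share was 4.95% to 10.5% with a library left out. With a library left out the median log2 fold change ran from -0.070 to 0.020 for the pump subunits and from -0.20 to -0.11 for the other lysosome genes. The pump median is too close to 0 to have a direction. With the replicate number as a block 5 members had an unadjusted p under 0.05, where 6.46% of all genes did, and 0 passed. S100a1 replicate 4 has no partner, so this block in effect leaves it out. The values gave no clear sign that the numbers pair the samples. Deviations from the group means correlated at -0.022, -0.075 and 0.082 for replicates 1 to 3. hrLuc replicate 3 correlated best with S100a1 replicate 3, but not every library did so with its own number. With so few libraries, each centred on its group mean, this cannot exclude pairing. ATP6V1G2 turned to -0.087 with the block and -0.078 in its lowest transcript row. With a library left out the sign turned in ATP6V1E2 (-0.034 to 0.105), ATP6V1G1 (-0.026 to 0.101), ATP6V1G2 (-0.087 to 0.150), ATP6V0C (-0.107 to 0.0051), ATP6V0D1 (-0.281 to 0.035), LIPA (-0.280 to 0.0062), MCOLN1 (-0.097 to 0.038), SORT1 (-0.208 to 0.083) and TCIRG1 (-0.067 to 0.114). The other 37 members kept their sign in every alternative. Some genes of few reads, such as CTSL, ATP6V1FNB and ATP6V0A4, have intervals too wide to bound a 1.5-fold change. The same holds for CTSA, CTSH, GLB1 and ATP6V1H, which have more reads. ATP6V1G2, also of few reads, is bounded, at -0.49 to 0.55.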

Other observations

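Of the 48 genes, 19 had several transcript rows, and in 14 the rows differed. LAMP2 had 2 rows: the row with most reads was at -0.06 between the groups and the other, with 54.6% of its reads, at -0.00066. TFEB was at 0.08 in the row used and 0.02 in the other. All 4 distinct rows of ATP6V0A1 were higher in S100a1, by 0.11 to 0.16, and both of ATP6V1H, by 0.31. Rows of 1 gene can share reads and are not replicates.

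LIPA shares its span on chromosome 14 (101131372 to 101254739) with the interferon-induced genes IFIT1, IFIT2 and IFIT3. The row used for LIPA was highest in hrLuc replicate 1 (2863), where IFIT1 (924) and IFIT3 (455) were also highest. IFIT2 was highest in S100a1 replicate 2 (394), against 379 in hrLuc replicate 1. Another LIPA row, with 24.1% of the reads of the row used, was at 625 in hrLuc replicate 1 and 468 to 550 in the other 6 libraries. Whether the rows share reads with these genes was not tested.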
